A study of Mus musculus with 12 samples.

Results

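The mitochondrial ribosomal protein genes were taken as the protein-coding genes whose description in the deposited gene table begins with "mitochondrial ribosomal protein". This gave 78 of the 58735 genes listed. By subunit, 26 of them belonged to the small subunit, 51 to the large subunit, and 1, MRPS36, carries the name without being part of the ribosome in solved structures. RNA-Seq of U2OS cells, a human osteosarcoma line, had been carried out in 12 libraries, with 3 replicates in each of 4 groups. The groups were blank cells without any manipulation, cells that received the siRNA siSRSF1-2, cells that received the siRNA siSRSF1-3, and cells with the long non-coding RNA LINC01134 upregulated (OE-LINC01134). All groups shared the U2OS line, and neither a dose nor a time was given for these libraries in the labels. Both siRNAs target SRSF1, an SR protein that binds pre-mRNA and takes part in splice site choice, RNA export and translation. No library of cells with a control siRNA was analysed here, so the siRNA and the transfection itself cannot be told apart in a difference from blank cells. The questions addressed were how the transcripts of the mitochondrial ribosome stood in each group, and whether both siRNAs moved them alike.

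Mitochondria keep a small genome that codes for core subunits of the respiratory chain, and they translate those mRNAs on a ribosome of their own. Its 2 ribosomal RNAs are transcribed inside the organelle, whereas every one of its proteins is encoded in the nucleus, made in the cytosol and imported. Part of these proteins descend from bacterial ribosomal proteins, and the others were added in the mitochondrial lineage, on the surface of the particle for the most part. Of the genes analysed, 30 large-subunit and 16 small-subunit genes code for homologs of bacterial proteins, and 21 and 10 code for proteins specific to mitochondria.

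The libraries held 26237763 to 32954539 reads on genes, and the 78 genes took between 0.401% and 0.698% of them. SRSF1 measured 35.9, 19.8 and 20.5 FPKM in the blank libraries, 7.09, 7.46 and 7.41 with siSRSF1-2 and 3.33, 6.81 and 7.90 with siSRSF1-3, with no overlap between blank and siRNA libraries (adjusted p = 0.00500 and 0.0518). LINC01134 measured between 878 and 1279 FPKM in the overexpressing libraries, and its highest level elsewhere was 1.11 FPKM. Of the mesenchymal markers, VIM, COL1A1, SPARC and RUNX2 were detected in every library and COL1A2 stayed under 0.02 FPKM. The blood markers PTPRC and CD3E and the endothelial markers PECAM1, CDH5 and VWF averaged at most 0.33 FPKM in any group, while HBB ranged from 5.93 to 50.9 FPKM. Within siSRSF1-2 the 3 libraries were near-identical in their reads (chi-square per gene between 2.75 and 3.45), as were blank 2 and blank 3 (2.97) and OE-LINC01134 1 and 3 (2.22), against 74.9 to 373 for the other pairs within a group. The study's methods speak of biological replicates, in another number than the libraries deposited, and a figure legend of 3 experimental repeats. Neither says what separated them, so the p-values measure the spread between libraries, which may be technical.

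In blank cells most of these genes sat at a moderate level. The unit is FPKM, reads scaled to gene length and library size, which allows genes of different length to be set side by side. The median over the 78 genes was 19.1 FPKM, 60 genes lay between 10 and 100 FPKM and 18 lay under 10 FPKM. The small-subunit genes had a median of 17.2 FPKM and the large-subunit genes one of 19.4 FPKM. Most of the proteins are known to be present in 1 copy per ribosome, and the mean levels of their genes spanned 0.566 to 98.2 FPKM.

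**Figure D1:**
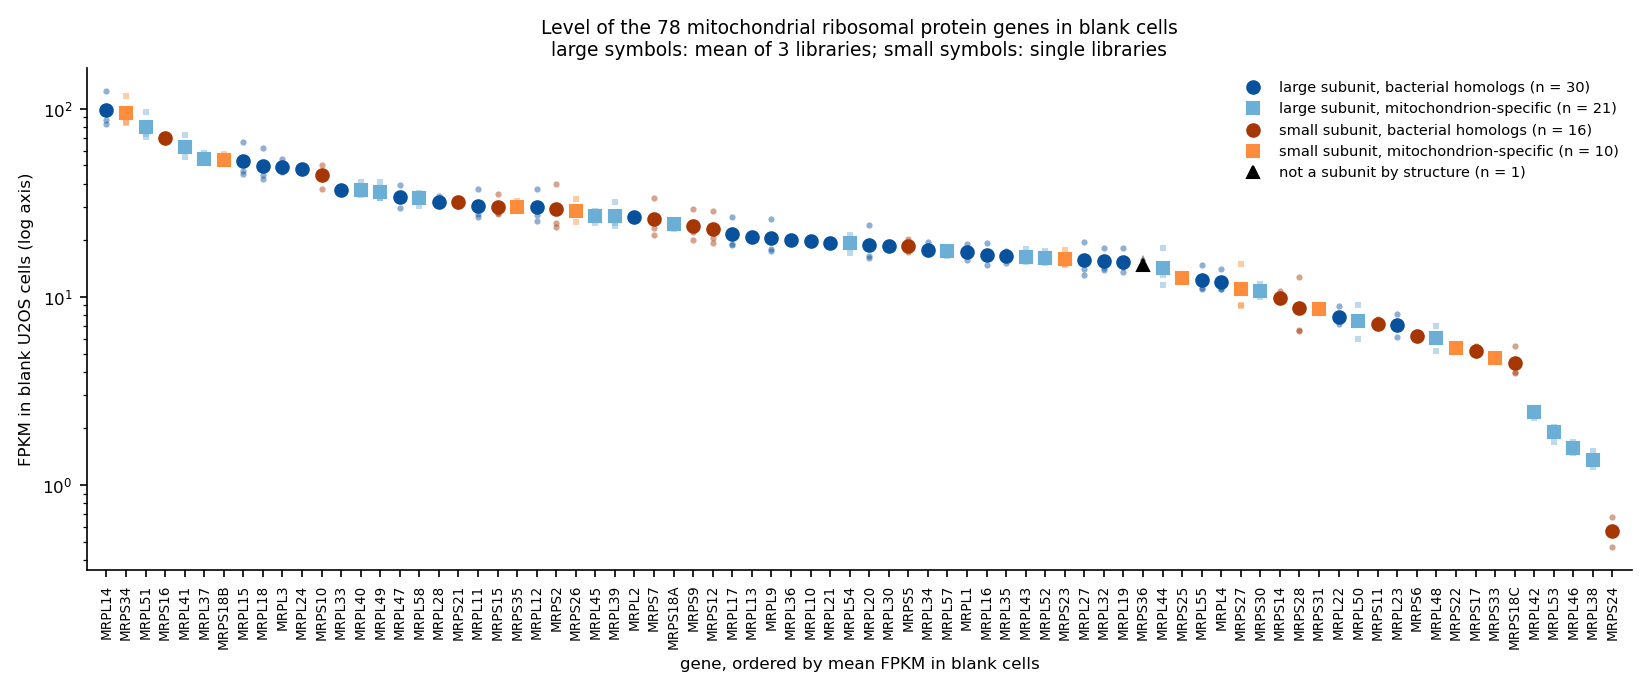
FPKM in blank U2OS cells (vertical log axis) of the 78 genes, ordered from the highest mean to the lowest. Large symbols are means of 3 libraries, small symbols the single libraries, and colour and shape give the subunit and the origin of the protein. The means fall gradually from 98.2 to 4.47 FPKM over most of the range, and 5 genes lie apart below 3 FPKM.

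MRPL14, a large-subunit homolog of a bacterial protein, was highest, with 125, 86.8 and 83.3 FPKM in the 3 blank libraries. MRPS34, a mitochondrion-specific protein of the small subunit, followed with 117, 83.8 and 84.7 FPKM, and the order of these 2 genes did not exceed their spread (98.2 ± 23.0 and 95.2 ± 18.9 FPKM, SD, n = 3). MRPL51 measured 96.2, 73.9 and 71.0 FPKM and MRPL41 72.7, 60.3 and 55.5 FPKM, both of the mitochondrion-specific part of the large subunit. In all of these genes blank 1 was the highest blank library, as it was for 65 of the 78 genes. The matching count over all genes was not made. MRPS16, a small-subunit protein whose loss is known to cause a mitochondrial disease of infancy, was the exception among the highest genes, with 69.6, 70.0 and 69.6 FPKM.

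At the other end, MRPS24 was listed at 0.677, 0.552 and 0.468 FPKM, on between 17 and 53 reads per library, and was the 1 gene that did not reach the mean of 0.5 FPKM needed for the tests. MRPL38 (1.51, 1.34 and 1.24 FPKM), MRPL46 (1.70, 1.52 and 1.47 FPKM), MRPL53 (2.04, 1.70 and 1.98 FPKM) and MRPL42 (2.26, 2.52 and 2.57 FPKM) were the next lowest. All of the latter are mitochondrion-specific proteins of the large subunit, and MRPL38, MRPL46 and MRPL53, like MRPS24, overlap another protein-coding gene on the same strand. In every blank library their levels lay below that of the next gene, MRPS18C. Gene length enters these values: MRPL42 was listed with 16393 bases, the longest of the 78, against a median of 2539.

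The paralogs of bacterial S18 differed in level. MRPS18C, the one that occupies the bacterial position in the small subunit, measured 5.48, 3.92 and 4.002 FPKM, MRPS18B, another small-subunit protein, 57.5, 52.2 and 50.9 FPKM and MRPS18A, which is found in the large subunit, 25.1, 23.0 and 25.4 FPKM. The 3 sets of blank values did not overlap. MRPL10 and MRPL12, which together form the flexible stalk that recruits translation factors, measured 20.4, 18.9 and 19.9 and 37.5, 25.3 and 27.2 FPKM, and MRPS36 measured 14.0, 14.2 and 16.1 FPKM. MRPS36 is known as a component of the alpha-ketoglutarate dehydrogenase complex.

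The genes lay on 21 chromosomes and were short, with a median length of 2539 bases against 5034 for the 12270 protein-coding genes that averaged at least 0.5 FPKM. A head-to-head neighbour was a protein-coding gene on the other strand whose start lies at most 1000 bases upstream. Pairs that overlap at their starts were not counted. Such a neighbour was found for 17 of the 78 (21.8%) and for 9.81% of those protein-coding genes. MRPL46 and MRPS11 form such a pair by themselves: on chromosome 15, MRPL46 runs on the minus strand from 88459476 to 88467419 and MRPS11 on the plus strand from 88467453 to 88480773. The genome build of these coordinates is not given in the sources used here. In blank cells MRPS11 measured 7.63, 6.88 and 6.94 FPKM, several times the level of MRPL46 in each library. For 13 genes another protein-coding gene overlapped on the same strand, read-through genes included, and their median was 8.69 FPKM against 19.7 for the other 65. Genes of any kind overlapped 23 of the 78 on the same strand (29.5%, against 32.5% of the protein-coding genes above) and 38 on the opposite strand, and 29 had neither. How reads were divided between overlapping genes is not stated, and the part of the overlap in these levels was not tested. Pseudogenes of these genes were listed for 49 parents, 104 in all, and took reads that amounted to between 0.200% and 0.438% of the reads on the 78 genes.

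With siSRSF1-2 the mitochondrial ribosomal protein genes were slightly lower than in blank cells. Of the 77 genes tested, 21 fell and 1 rose at an adjusted p under 0.05 (limma on log2(FPKM + 0.1), Benjamini-Hochberg adjustment over all 17538 genes tested). Over all genes tested, 12.8% fell and 14.0% rose. The log2 fold change was negative for 65 genes and positive for 12, with a median of -0.18 against 0.02 over all genes, and no gene moved by more than 1 on the log2 scale (over all genes tested, 2.73% fell and 2.22% rose by more than that). In 42 genes every siSRSF1-2 library lay below every blank library and in 4 genes above, against 24.2% and 25.3% of all genes. In bulk RNA, fewer cells with a transcript and less of it per cell cannot be told apart.

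**Figure D2:**
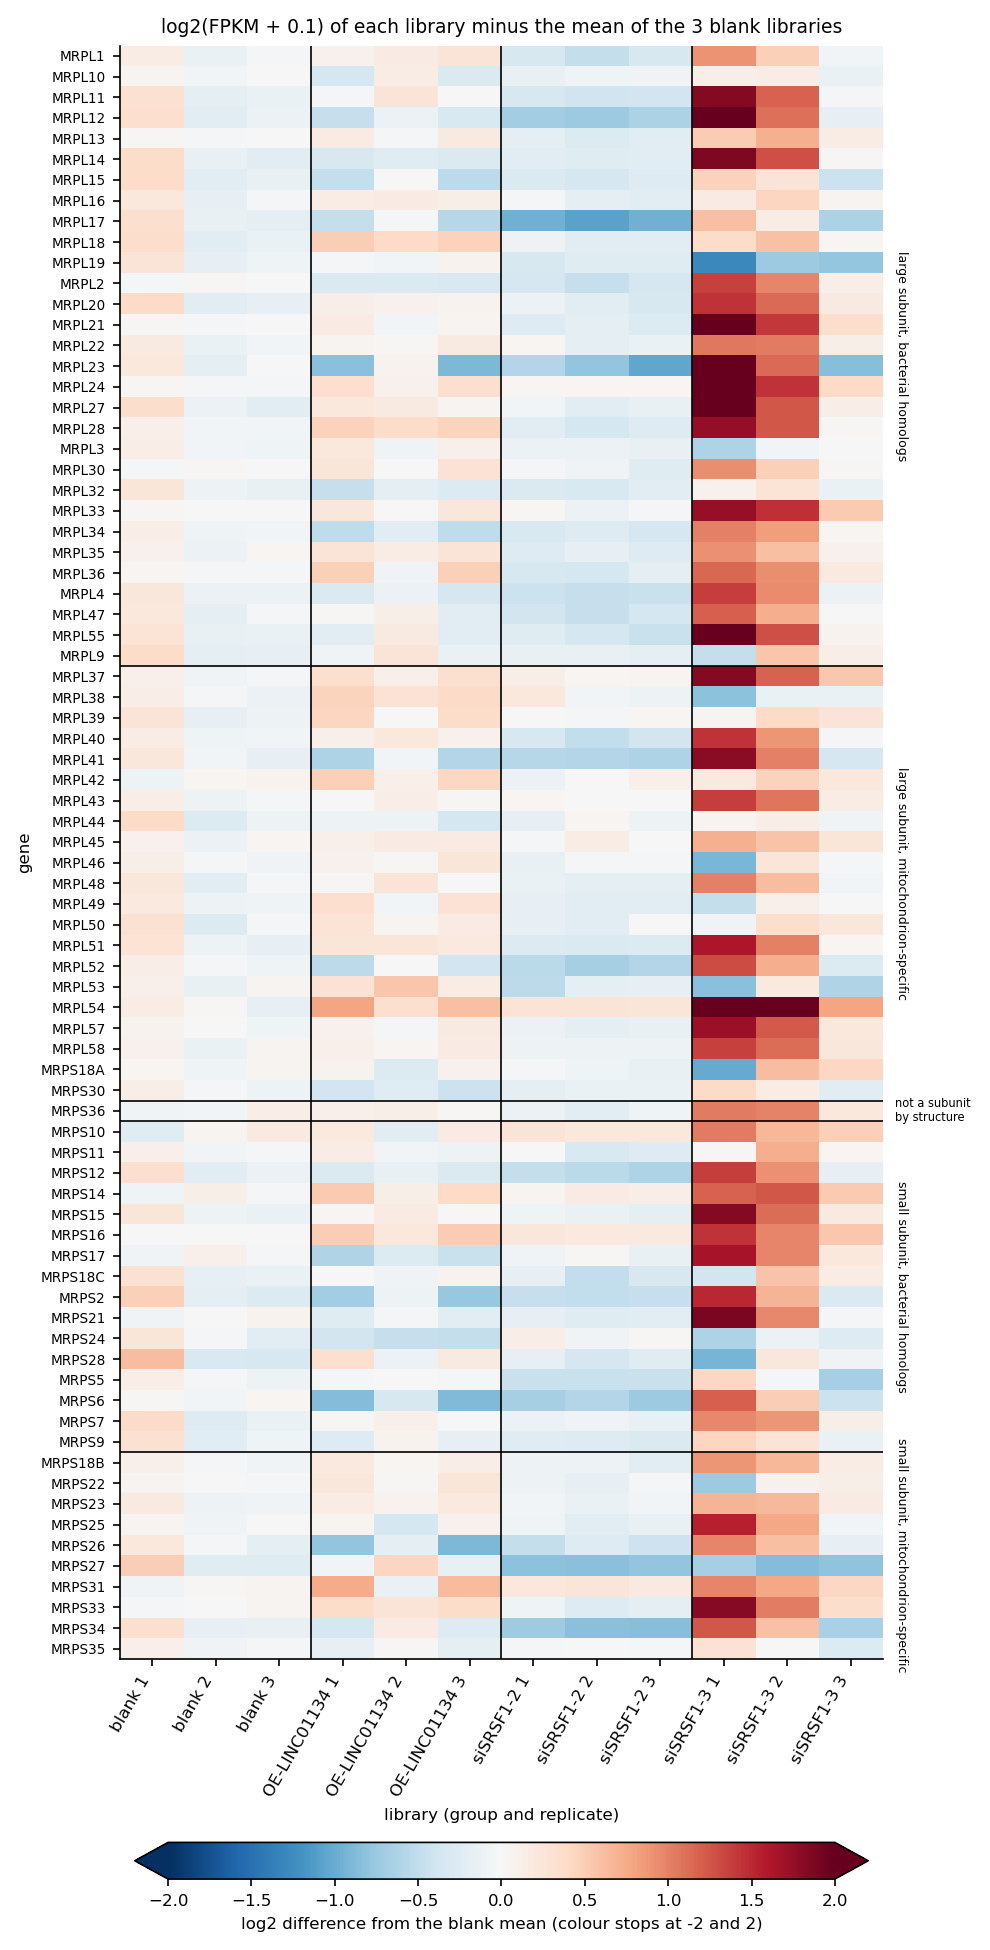
Values of the 78 genes (rows, grouped by subunit and origin) in the 12 libraries (columns), as log2(FPKM + 0.1) minus the mean of the blank libraries of that gene, with red for higher and blue for lower. The siSRSF1-2 columns are faintly blue in most rows and alike, and the first and second siSRSF1-3 columns are red in most rows while the third is pale.

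MRPL17 (ENSG00000158042, chromosome 11, 6680782 to 6683401, minus strand), whose bacterial homolog lines the exit of the nascent chain tunnel, fell most. It measured 26.7, 19.2 and 18.9 FPKM in blank cells and 10.9, 10.1 and 10.9 with siSRSF1-2, a log2 fold change of -0.99 ± 0.14 (SE, n = 3 per group, adjusted p = 0.00630 by limma). Blank and siSRSF1-2 libraries were well apart, and blank 1 was the highest of the former. MRPS27 (ENSG00000113048, chromosome 5, 72219409 to 72320646, minus strand), a small-subunit protein with pentatricopeptide repeats, an RNA-binding fold, measured 14.97, 8.98 and 9.01 FPKM in blank cells and 6.01, 5.90 and 6.14 with siSRSF1-2 (-0.82 ± 0.20, adjusted p = 0.0325, limma). Here the blank libraries themselves were spread, with blank 1 well above the other 2, and the siSRSF1-2 libraries were close to each other. MRPL23 (ENSG00000214026, chromosome 11, 1947278 to 1984522, plus strand), at the tunnel exit as well, went from 8.15, 6.11 and 7.03 FPKM to 4.68, 4.03 and 3.37 FPKM (-0.80 ± 0.16, adjusted p = 0.0148, limma). An antisense RNA gene overlaps MRPL23 on the opposite strand, and their reads cannot be told apart without strand.

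Among the genes with high levels, MRPS34 went from 117, 83.8 and 84.7 to 57.4, 52.5 and 51.9 FPKM (-0.80 ± 0.14, adjusted p = 0.0108, limma). MRPL41 went from 72.7, 60.3 and 55.5 to 42.0, 41.8 and 40.5 FPKM (-0.59 ± 0.10, adjusted p = 0.0113). In both, every siSRSF1-2 library lay below every blank library. MRPL12 of the stalk fell from 37.5, 25.3 and 27.2 to 18.2, 17.9 and 18.9 FPKM (-0.69 ± 0.15, adjusted p = 0.0213, limma). Its partner MRPL10 measured 17.7, 18.6 and 18.7 FPKM and did not pass (-0.10 ± 0.06, adjusted p = 0.255), although its libraries did not overlap with the blank ones either. The fall of MRPL12 minus that of MRPL10 was not tested.

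The tightest small-subunit fall was that of MRPS6 (ENSG00000243927, chromosome 21, 34073224 to 34143034, plus strand), a protein of the platform, from 6.26, 5.92 and 6.36 to 3.84, 4.07 and 3.67 FPKM (-0.66 ± 0.08, adjusted p = 0.00339, limma). MRPL52, specific to mitochondria, came to -0.60 ± 0.08 on the log2 scale (adjusted p = 0.00507). MRPS5 and MRPS12, whose bacterial homologs sit near the decoding site, fell by 0.44 and 0.55 on the log2 scale. MRPL2, a core protein of the large subunit next to the peptidyl transferase centre, went from 26.1, 27.1 and 27.0 to 21.1, 19.3 and 21.3 FPKM (-0.38, adjusted p = 0.00926). The other 10 genes that fell were MRPL1, MRPL4, MRPL13, MRPL21, MRPL28, MRPL34, MRPL36, MRPL40, MRPL47 and MRPS21, with log2 fold changes between -0.44 and -0.21. Of the genes that fell, MRPS5, MRPS6, MRPL12 and MRPL28 overlap another protein-coding gene on the same strand. A gene or pseudogene overlaps MRPL1, MRPL2, MRPL4, MRPL13, MRPL23, MRPL34, MRPL40, MRPL47, MRPS6, MRPS12 and MRPS27 on the opposite strand.

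MRPS16 (ENSG00000182180, chromosome 10, 73248843 to 73252693, minus strand) was the 1 gene that rose, from 69.6, 70.0 and 69.6 FPKM to 82.0, 79.6 and 78.9 FPKM (0.20 ± 0.05, adjusted p = 0.0280, limma). The blank libraries of this gene were nearly equal, and every siSRSF1-2 library lay above them. Another protein-coding gene overlaps MRPS16 on the same strand, and an antisense RNA gene does on the opposite strand. MRPL54 (21.2, 19.5 and 17.1 FPKM in blank cells, 23.1, 23.2 and 22.7 with siSRSF1-2) and MRPS31 (8.20, 8.73 and 8.97 and 10.03, 10.2 and 9.74 FPKM) had every siSRSF1-2 library above the blank ones without passing (adjusted p = 0.0776 and 0.0625, limma). So did MRPS10 (adjusted p = 0.186).

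MRPL14 and MRPL51, high in blank cells like MRPS34 and MRPL41, did not pass. MRPL14 measured 83.5, 81.8 and 82.4 FPKM (-0.23 ± 0.16, adjusted p = 0.325, limma) and MRPL51 65.5, 64.9 and 66.1 FPKM (-0.28 ± 0.12, adjusted p = 0.137). In both, blank 1 lay well above the other 2 blank libraries. For MRPL14 those 2 lay close to the siSRSF1-2 libraries. For MRPL51 every blank library lay above every siSRSF1-2 library. The log2 fold changes of MRPS18A, MRPS18B and MRPS18C were -0.09, -0.14 and -0.33, and that of MRPS36 was -0.14, none past the threshold (adjusted p = 0.364, 0.186, 0.182 and 0.252, limma).

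**Figure D3:**
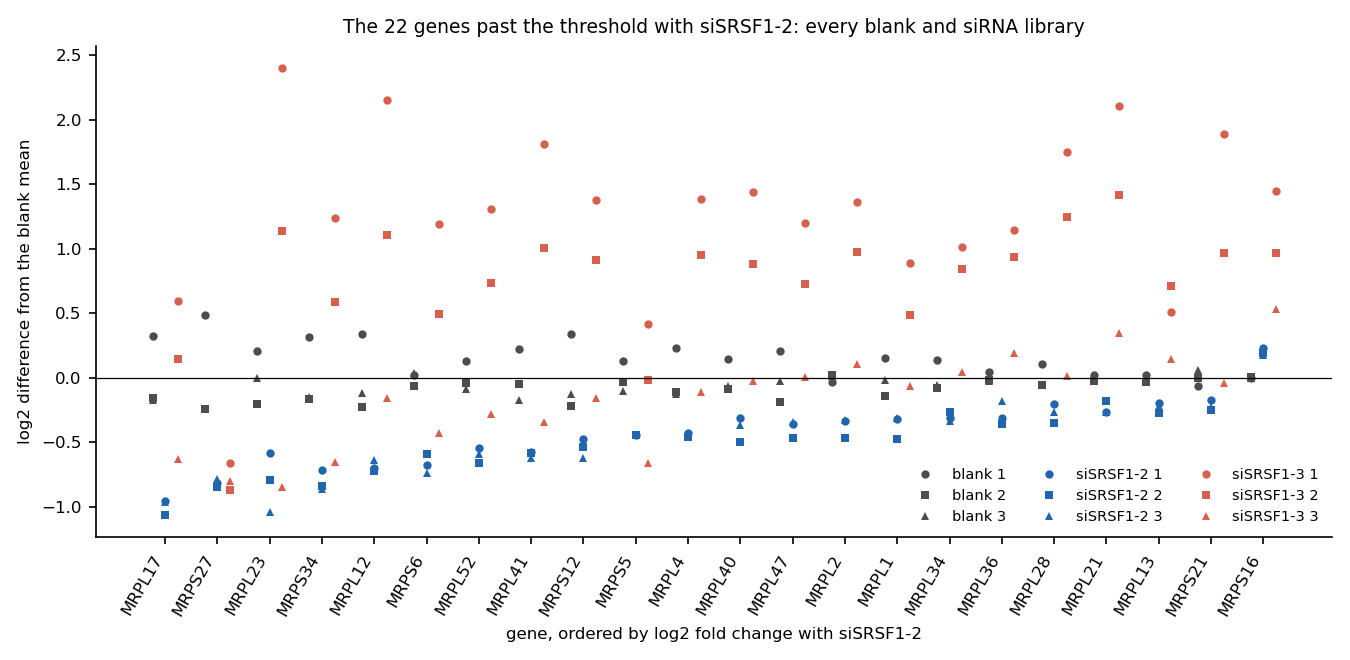
The 22 genes past the threshold with siSRSF1-2, ordered by log2 fold change, with every blank (grey), siSRSF1-2 (blue) and siSRSF1-3 (red) library as log2(FPKM + 0.1) minus the blank mean. The siSRSF1-2 points of each gene lie close together below the blank points, except for MRPS16 where they lie above, and the siSRSF1-3 points of most genes spread from high (replicate 1) to the blank level or below (replicate 3).

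By subunit, 15 of 51 large-subunit genes fell and none rose (1 rose at an unadjusted p under 0.05), with a median log2 fold change of -0.20, and 6 of 25 small-subunit genes fell and 1 rose, with a median of -0.18. Of the homologs of bacterial proteins in the large subunit, 12 of 30 fell (median -0.25), and of the mitochondrion-specific ones 3 of 21 did (median -0.10). In the small subunit 4 of 15 homologs fell (median -0.21) and 2 of 10 mitochondrion-specific genes did (median -0.15). The cytosolic ribosomal protein genes, 33 of 77 of which fell and none rose (1 at an unadjusted p under 0.05), had the same median of -0.18. Whether these groups differ was not tested.

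The number of genes that fell with siSRSF1-2 was 0 by limma with 1 fit over all 12 libraries (2.01% of all genes). It was 12 without blank 3 (8.31%), 7 without siSRSF1-2 replicate 1 (5.74%) and 4 without replicate 2 (5.34%) or replicate 3 (5.27%). Without blank 1, 30 genes fell (24.7%) and 5 rose (27.4%), with a median of -0.11. Averaging near-identical libraries leaves siSRSF1-2 with 1 value and no spread of its own, and the median was then -0.22. After scaling every library to an equal FPKM sum, which moves the median of all genes to 0.15, the median of these genes was -0.05, with 12 that fell and 5 that rose, against 8.93% and 21.1% of all genes. Of the 4 mesenchymal markers that could be tested, VIM (-1.39), COL1A1 (-0.97) and RUNX2 (-0.68) fell in the same comparison and SPARC had a log2 fold change of -0.89, and HBB rose (0.92). Their part in the result was not tested.

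With siSRSF1-3 the 3 libraries did not agree on these genes. Relative to the mean of the blank libraries, the median of the 77 genes was 1.01 on the log2 scale in replicate 1, 0.71 in replicate 2 and 0.04 in replicate 3, whereas the median of all genes lay between -0.03 and 0.04. The summed level of the genes was 4682, 3422 and 1983 FPKM in these libraries and between 1778 and 2172 FPKM in the blank ones. In replicates 1 and 2, 54 of the 77 genes were above every blank library, as were 33.3% of all genes tested. Replicate 1 was the highest of all 12 libraries for 54 genes, a count that was not made over all genes. In replicate 3, 25 genes lay above every blank library and 16 below, against 34.9% and 30.4% of all genes. The cytosolic ribosomal protein genes had medians of 1.95, 1.21 and 0.16 in the same libraries.

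**Figure D4:**
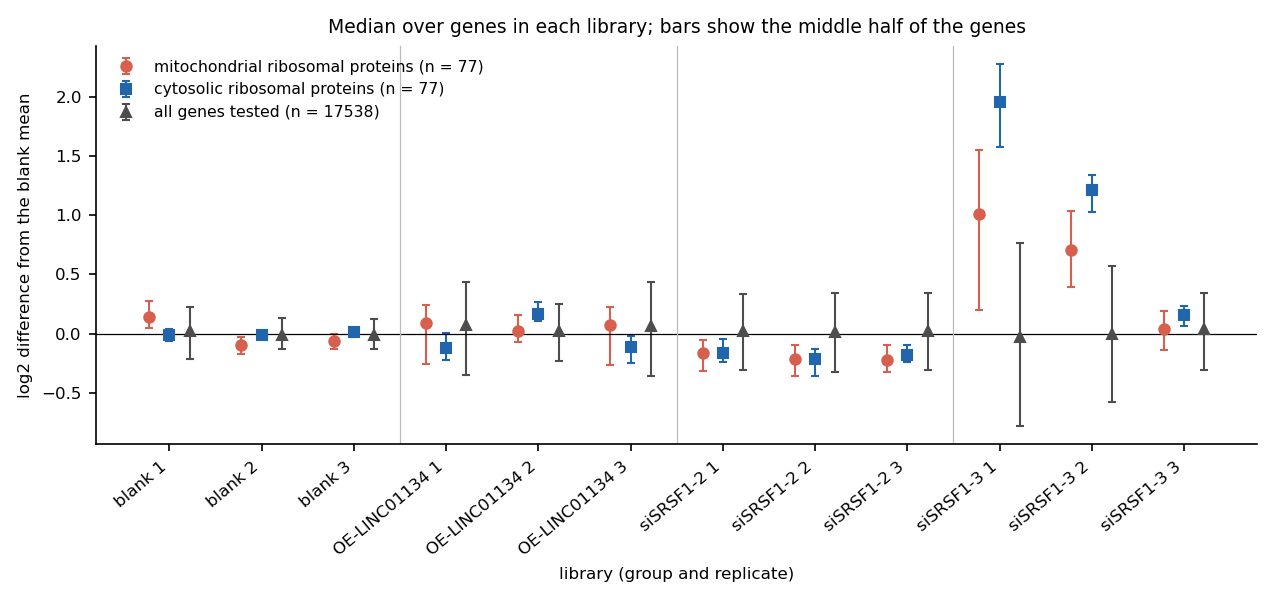
Median log2 difference from the blank mean over the 77 mitochondrial ribosomal protein genes tested (red circles), 77 cytosolic ribosomal protein genes (blue squares) and 17538 genes tested (grey triangles) in each of the 12 libraries, with bars from the lower to the upper quartile of the genes. Both ribosomal groups stand above all genes in siSRSF1-3 replicates 1 and 2 and close to them in replicate 3.

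With all 3 libraries no gene passed the threshold (limma, 0 higher and 0 lower, against 0.342% and 0.935% of all genes, and 0.331% and 0.929% by more than 1 on the log2 scale), and limma's voom on recovered reads gave 0 as well. At an unadjusted p under 0.05, 23 were higher and 2 lower, against 15.2% and 13.6% of all genes. The median log2 fold change was 0.59 (67 positive, 10 negative) against -0.01 over all genes. Every siSRSF1-3 library lay above the blank ones in 23 genes and below them in 3, against 19.2% and 18.0% of all genes. Without replicate 3, 49 genes were higher and 1 lower, against 19.1% and 16.8% of all genes. By replicate 3 alone, with the spread shared by the other groups, 0 were higher and 1 lower, against 0.485% and 0.741%, and the median was 0.04. With 1 fit over all 12 libraries, 29 were higher and 2 lower, against 14.9% and 12.9%.

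MRPS14 (ENSG00000120333, chromosome 1, 175010789 to 175023425, minus strand), in the head of the small subunit and overlapped by another gene on the opposite strand, came closest to the threshold. It measured 9.34, 10.7 and 9.68 FPKM in blank cells and 22.4, 23.4 and 14.3 with siSRSF1-3 (0.98 ± 0.23, adjusted p = 0.0752, limma), and siSRSF1-3 replicate 3 also lay above the blank range. MRPL54 (ENSG00000183617, chromosome 19, 3762664 to 3768575, plus strand), specific to mitochondria, had the largest fold change, from 21.2, 19.5 and 17.1 FPKM to 139, 77.5 and 33.1 FPKM (1.88 ± 0.49, adjusted p = 0.0858, limma). MRPL33, a small protein next to the exit site for tRNA, went from 37.8, 36.6 and 36.6 to 124, 102 and 53.4 FPKM (1.24 ± 0.32, adjusted p = 0.0872). Another protein-coding gene overlaps MRPL33 on the same strand. MRPS16, the gene that rose with siSRSF1-2, measured 190.3, 137 and 101 FPKM (0.98 ± 0.27, adjusted p = 0.0940).

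The genes with the highest levels in blank cells were among those with the highest levels here. MRPL14 measured 351, 237 and 98.4 FPKM (1.06 ± 0.48, adjusted p = 0.188, limma), MRPL51 244, 159.6 and 81.4 FPKM, MRPS34 222, 141 and 59.9 FPKM and MRPL41 219, 126 and 49.3 FPKM. In each of them replicates 1 and 2 lay above the blank range, and replicate 3 lay within it or, for MRPS34 and MRPL41, below it. MRPS18B, with 98.9, 84.5 and 59.1 FPKM, and MRPS36, with 30.3, 29.4 and 17.04 FPKM, had all siSRSF1-3 libraries above the blank ones, and MRPL10, with 21.4, 21.96 and 17.9 FPKM, had replicate 3 below them (0.05 ± 0.17, adjusted p = 0.864).

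The spread inside the group was widest in MRPL23, with 37.6, 15.6 and 3.87 FPKM. Its siSRSF1-3 replicate 1 was the highest of the 12 libraries and its replicate 3 lay below every blank library (0.90 ± 0.74, adjusted p = 0.426, limma). MRPL12 measured 132, 63.6 and 26.4 FPKM, MRPL27 82.4, 36.7 and 16.95 FPKM and MRPL55 53.2, 29.8 and 12.8 FPKM. The ratio of the highest to the lowest of the 12 libraries was 11.2 for MRPL23, 8.09 for MRPL54, 7.36 for MRPL12, 6.29 for MRPL27 and 5.94 for MRPL55, and under 2 for MRPL10 (1.43). The median coefficient of variation over the genes was 35.5% with siSRSF1-3, 4.02% with siSRSF1-2, 9.43% with OE-LINC01134 and 10.1% in blank cells.

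A few genes went against the median. MRPL19 (ENSG00000115364, chromosome 2, 75646783 to 75690851, plus strand), whose bacterial homolog lies at the interface of the subunits and which another gene overlaps on the opposite strand, measured 18.2, 13.5 and 14.3 FPKM in blank cells and 6.20, 9.16 and 8.82 with siSRSF1-3 (-0.93 ± 0.22, adjusted p = 0.0772, limma), lower in each library, replicate 3 included. MRPS27 measured 6.71, 5.79 and 6.08 FPKM, level with the siSRSF1-2 libraries and below every blank one (-0.78 ± 0.24, adjusted p = 0.109). MRPL38 (0.724, 1.23 and 1.23 FPKM) lay below the blank libraries too. MRPL53 (1.02, 2.20 and 1.22 FPKM) and MRPS28 (4.29, 9.70 and 7.84 FPKM) overlapped with the blank range, and MRPS18A was split, with 12.1, 37.7 and 32.8 FPKM, the lowest and the highest of all its libraries among them.

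The siSRSF1-3 libraries also differed from the rest in ways that concern all genes. Reads were found on 27922 and 27813 genes in replicates 1 and 2 and on 30157 to 32629 genes in the other libraries. The library size that the deposited FPKM imply was 0.712 and 0.888 times the number of reads on genes in these libraries and 0.990 to 1.09 times elsewhere. With FPKM scaled to each library's own reads the median of the genes was 0.33 and that of all genes -0.26, and with equal FPKM sums 0.14 and -0.43. Cell type markers differed too. The 3 epithelial markers EPCAM, CDH1 and KRT19 summed to 2.94 to 3.14 FPKM with siSRSF1-3 and to 1.36 to 2.22 FPKM in blank cells, with KRT19 at 0.24 FPKM or less in every library. HBB measured 10.01, 50.9 and 15.5 FPKM (1.49), and the 5 mesenchymal markers summed to 141 to 246 FPKM against 261 to 399 FPKM, with COL1A1 at -0.76. None of these markers passed the threshold (adjusted p = 0.123, 0.144 and 0.116 for EPCAM, HBB and COL1A1, limma). The part of these differences in the result was not tested.

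Gene length moved with the values. Over the 77 genes, Spearman's rho between length and the log2 difference from blank was -0.24, -0.25 and -0.09 in siSRSF1-3 replicates 1, 2 and 3, where all genes gave -0.17, -0.18 and -0.08. The points of a panel share a library and its depth. The 25 shortest genes had a median log2 fold change of 0.64 and the 25 longest ones one of 0.29. After a smooth trend on gene length had been removed from every library, the median of the genes was 0.39 with 55 positive and 22 negative, against -0.01 over all genes, and 0 genes passed the threshold (limma).

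**Figure D5:**
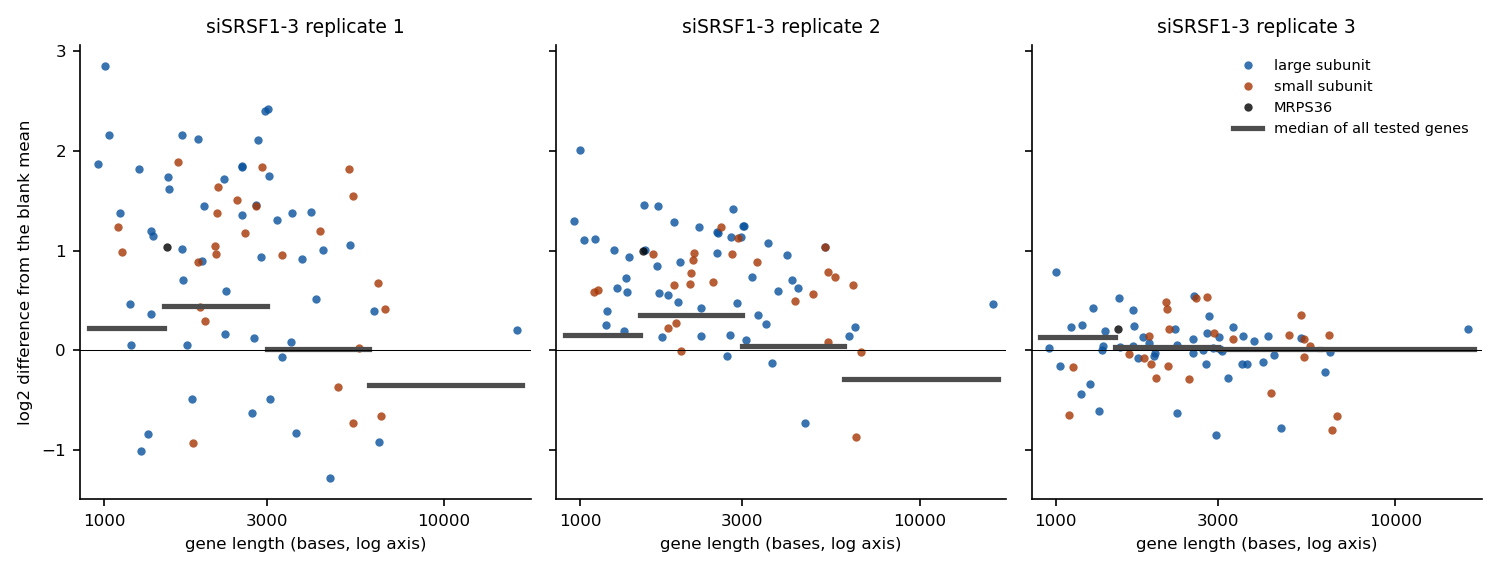
Log2 difference from the blank mean (vertical) against gene length in bases (horizontal log axis) in the siSRSF1-3 libraries, 1 panel per replicate, with 1 point per gene coloured by subunit and grey bars at the median of all tested genes in 4 length classes. In replicates 1 and 2 most points lie above the grey bars, and in replicate 3 points and bars lie near 0.

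Set against each other, without blank libraries, siSRSF1-3 lay above siSRSF1-2 for most genes. The log2 fold change of siSRSF1-3 over siSRSF1-2 was positive for 70 of the 77 genes, with a median of 0.83 against -0.02 over all genes. No gene passed the threshold (limma, 0.0342% of all genes higher and 0.0513% lower), and voom on recovered reads gave 0 too. At an unadjusted p under 0.05, 53 were higher and 1 lower, against 21.9% and 20.2% of all genes, and the libraries did not overlap in 57 genes that were higher and 2 that were lower, against 27.0% and 27.6%. When siSRSF1-3 replicate 3 was left out, 59 genes were higher and 1 lower, against 31.2% and 30% of all genes, and with 1 fit over all 12 libraries 50 were higher and 1 lower, against 16.8% and 15.5%. By replicate 3 alone the median was 0.25, with 68 positive and 9 negative, and 0 genes passed (limma).

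MRPS14 measured 10.3, 11.1 and 10.8 FPKM with siSRSF1-2 and 22.4, 23.4 and 14.3 with siSRSF1-3, a log2 difference of 0.86 ± 0.21 (adjusted p = 0.0790, limma). MRPL13 measured 18.1, 17.2 and 17.9 and 29.7, 34.1 and 23.0 FPKM (0.68 ± 0.17, adjusted p = 0.0792) and MRPL36, a very short protein, 16.2, 15.7 and 17.8 and 44.6, 38.7 and 23.1 FPKM (1.04 ± 0.26, adjusted p = 0.0793). In all 3 genes the third siSRSF1-3 library lay above the siSRSF1-2 libraries as well. In the other direction, MRPL19 measured 12.2, 12.9 and 12.8 and 6.20, 9.16 and 8.82 FPKM (-0.66 ± 0.17, adjusted p = 0.0801). MRPL38 and MRPL46 had values of -0.38 and -0.16 with adjusted p = 0.273 and 0.701. The difference of MRPS27 between the siRNAs was smaller than its error (0.04 ± 0.11, adjusted p = 0.789). The group medians were 1.03 and 0.47 for the bacterial homologs and the mitochondrion-specific proteins of the large subunit, and 0.78 and 0.64 for those of the small subunit.

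With OE-LINC01134 the genes stayed close to blank cells as a group. The median log2 fold change was 0.08 against 0.05 over all genes, with 48 positive and 29 negative. No gene passed the threshold (limma, 0.450% of all genes higher and 0.730% lower), and voom on recovered reads gave 0 too. At an unadjusted p under 0.05, 6 were higher and 6 lower, against 14.0% and 12.3% of all genes, and the libraries did not overlap in 12 genes that were higher and 8 that were lower, against 16.8% and 13.8%. OE-LINC01134 2 stood apart from the other 2 libraries of its group, with VIM at 68.7, 248 and 69.4 FPKM in the 3 libraries against 244, 181 and 195 FPKM in the blank ones. Without it 10 genes were higher and 10 lower, against 13.5% and 12% of all genes, and without blank 1, 3 were higher and 1 lower, against 7.61% and 6.31%.

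MRPL28 measured 34.4, 30.6 and 30.7 FPKM in blank cells and 43.8, 41.0 and 43.3 with OE-LINC01134 (0.42 ± 0.10, adjusted p = 0.0767, limma). MRPL54 went from 21.2, 19.5 and 17.1 to 33.4, 24.1 and 29.3 FPKM (0.58 ± 0.15, adjusted p = 0.0895) and MRPS16 from 69.6, 70.0 and 69.6 to 98.6, 80.5 and 99.1 FPKM (0.40 ± 0.11, adjusted p = 0.0984). In each, all overexpressing libraries lay above the blank ones, and the second was the lowest of them. Lower values were found for MRPS6 (3.33, 4.91 and 3.32 FPKM, -0.69 ± 0.18, adjusted p = 0.0885), MRPL2 (21.7, 21.7 and 21.6 FPKM, -0.30 ± 0.09, adjusted p = 0.106) and MRPS17 (3.37, 4.24 and 3.74 FPKM, -0.44 ± 0.14, adjusted p = 0.113), again without overlap with blank cells. MRPL54 and MRPS16, the latter with a protein-coding gene overlapping it on the same strand, lay above the blank libraries in all 3 manipulated groups. These groups share the blank libraries. MRPL2 lay below them with OE-LINC01134 and siSRSF1-2 and above them with siSRSF1-3.

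Further parts of the mitochondrial ribosome and of its machinery were taken from lists. Of 5 ribosome subunits that carry other names, AURKAIP1 went from 66.9, 51.6 and 49.8 FPKM to 37.6, 37.2 and 37.7 FPKM with siSRSF1-2 (-0.57 ± 0.12, adjusted p = 0.0182, limma). GADD45GIP1 went from 30.8, 26.2 and 24.4 FPKM to 16.2, 17.1 and 15.5 FPKM (-0.73 ± 0.10, adjusted p = 0.00522), and CHCHD1, DAP3 and PTCD3 did not pass. With siSRSF1-3 the first 2 measured 279.7, 135 and 55.9 FPKM and 105, 51.7 and 20.7 FPKM, with the same order of libraries as most of the 77 genes, and 0 of the 5 passed (limma, 1 at an unadjusted p under 0.05).

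Of 28 assembly factors, 4 fell with siSRSF1-2 and 1 rose, with a median of -0.01, where 12.8% of all genes fell and 14.0% rose, so that the share that fell was near the background. The rRNA methyltransferase MRM1 (-0.95), MTERF3 (-0.54), the acyl carrier protein NDUFAB1 (-0.48) and C1QBP (-0.54) fell, and NGRN, a factor that binds the large rRNA, rose (0.37). Of 17 translation factors, 3 fell and 3 rose, with a median of 0.07, again near those shares. They were the elongation factor TUFM (-0.51), its exchange factor TSFM (-0.56) and SLIRP, which protects mitochondrial mRNAs (-0.78), which fell, and the elongation factor GFM1 (0.58), the release factor MTRF1 (0.45) and the membrane insertase OXA1L (0.33), which rose. With siSRSF1-3 the medians of these lists were 0.14 and 0.22, and no gene of either passed (limma). Their unadjusted p was under 0.05 in 4 and 2 genes that were higher and in 0 that were lower, against 15.2% and 13.6% of all genes. With OE-LINC01134 the assembly factor GTPBP10 rose from 3.803, 2.94 and 3.11 to 6.99, 5.57 and 6.93 FPKM (0.96 ± 0.16, adjusted p = 0.0497, limma).

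The ribosomal RNAs of the organelle were read from libraries made for mRNA, so their level is not that of the ribosome. MT-RNR1, the small rRNA, measured 599.5, 973 and 1012 FPKM in blank cells, 802, 763 and 793 with siSRSF1-2, 1813, 1221 and 844 with siSRSF1-3 and 440.3, 475 and 421 with OE-LINC01134. It was below every blank library with OE-LINC01134 (-0.92 ± 0.21, adjusted p = 0.0764, limma), as was MT-RNR2 (-0.80 ± 0.21, adjusted p = 0.0890). Of the 13 mRNAs of the mitochondrial genome, which this ribosome translates, 3 fell and 0 rose with siSRSF1-2. Over all genes 12.8% fell and 14.0% rose. Those that fell were MT-ND3 (-0.77), MT-CO1 (-0.34) and MT-CO2 (-0.46), and the median of the 13 was -0.21. With OE-LINC01134 all 13 had a negative log2 fold change, with a median of -0.44. Of them 10 lay below blank cells without overlap, against 13.8% of all genes. None passed the threshold (limma, 0 of 13), and 8 were lower at an unadjusted p under 0.05, against 12.3% of all genes. With siSRSF1-3 the median of the 13 mRNAs was -0.01, with 6 positive and 7 negative.

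Of 8 regulators of nuclear-encoded mitochondrial genes that were tested, 1, MYC, rose with siSRSF1-2 (0.26 ± 0.07, adjusted p = 0.0451, limma). This was near the 14.0% of all genes that rose. No other regulator passed in any comparison. NRF1, GABPA and YY1, transcription factors known to bind promoters of this kind, measured 0.16, 0.20 and 0.03 with siSRSF1-2 and 0.24, -0.38 and -0.19 with siSRSF1-3 as log2 fold change. Of the 14 head-to-head neighbours that were tested, MRPL46 and MRPS11 among them, 2 rose and 2 fell with siSRSF1-2, shares near the 14.0% and 12.8% of all genes. Beside MRPL36 (-0.28), the respiratory complex I gene NADH:ubiquinone oxidoreductase subunit S6 fell (-0.49, adjusted p = 0.0372, limma), and beside MRPL57 (-0.16), spindle and kinetochore associated complex subunit 3 fell (-0.73, adjusted p = 0.0113). A zinc finger protein gene beside MRPL50 (-0.13) rose (0.88, adjusted p = 0.00361), and beside MRPS18C (-0.33), the gene of the DNA helicase named POLQ like rose (0.31, adjusted p = 0.0367). With siSRSF1-3 the genes that have such a neighbour had a median of 0.48 and the neighbours one of 0.08. MRPL46 and MRPS11, each the neighbour of the other, count in both medians.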

How the data were processed

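RNA of U2OS cells was sequenced in 12 libraries, grouped by the labels. The authors deposited 1 table of FPKM per gene, with gene length and coordinates. Column names that carry ASF, an older name of SRSF1, were taken as the siSRSF1 libraries, and those with the cell line alone as blank. Aligner, annotation, strandedness and human genome build are not given in the sources used here, and the labels name mouse builds and the organism mouse although the gene identifiers are human. Counts of overlapping, antisense and near-identical genes are therefore uncertain, and no sequence is shown.

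Genes with a mean of at least 0.5 FPKM (17538 of 58735) were tested with limma 3.58.1 (R 4.3.3, moderated with a mean-variance trend) on log2(FPKM + 0.1), using only the libraries of the 2 groups compared, with Benjamini-Hochberg adjustment over all genes tested and a threshold of 0.05. Fold changes are on the log2(FPKM + 0.1) scale, which understates the change of low genes. Tables were made with Python 3.11.15, pandas 2.3.3 and numpy 2.4.6, and the fits were tested on simulated data.

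FPKM times gene length came in whole multiples of 1 read per library, within a tolerance of 0.01 for 100% of values, which gave the reads per gene and the depth (26237763 to 32954539 reads on genes). The number of reads limits the precision of low genes, and counting error alone is covered by them. Head-to-head neighbours were protein-coding genes on the opposite strand starting at most 1000 bases upstream, and pairs that overlap at their starts were left out. The gene length trend was a loess curve with a span of 0.5. Libraries with a chi-square per gene under 5 were called near-identical.

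Members and lists were chosen with earlier results of these data known. Named with values were, in each comparison, the 3 largest rises and falls among genes past the threshold, or those of smallest p where fewer than 3 passed, the 5 highest and 5 lowest genes in blank cells, the gene under the filter, MRPS36, the MRPS18 paralogs, MRPL10, MRPL12, up to 5 genes against the median with siSRSF1-3, and the 5 with the widest ratio between libraries. Other genes were chosen after their values had been seen. The alternatives tried are given with their effect in the closing section.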

Additional observations from a re-analysis of the deposited data

Results flagged for a closer look

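In 10 of the 77 genes tested every siSRSF1-2 library lay below, and every siSRSF1-3 library above, the blank libraries, which both comparisons share. The difference between the siRNAs in these genes was not tested by this pattern. It was found in 1.78% of all genes tested, and the reverse pattern in 0 of the 77. The log2 fold changes with siSRSF1-2 and siSRSF1-3 were -0.23 and 0.45 for MRPL13, -0.38 and 0.82 for MRPL2, -0.24 and 1.29 for MRPL21, -0.12 and 0.48 for MRPL30, and -0.22 and 0.54 for MRPL35. They were -0.28 and 0.76 for MRPL36, -0.16 and 1.06 for MRPL57, -0.14 and 0.56 for MRPS18B, -0.18 and 1.07 for MRPS33, and -0.14 and 0.75 for MRPS36. MRPL2, MRPL13, MRPL21 and MRPL36 passed the threshold with siSRSF1-2, and with siSRSF1-3 0 of the 10 did (limma, 6 at an unadjusted p under 0.05). The 10 genes were picked by the values of the same libraries, so these counts add no evidence for the pattern.

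Of the 6 pseudogenes that averaged at least 0.5 FPKM, which the comparisons did not use, 2 had every library of a manipulated group above the blank ones. A pseudogene of MRPL14 (ENSG00000275997) measured 1.03, 1.17 and 0.437 FPKM in blank cells and 1.66, 1.45 and 3.09 FPKM with siSRSF1-2. A pseudogene of MRPL45 (ENSG00000228782) measured 2.62, 2.62 and 3.16 FPKM in blank cells. Its lowest library was at 3.31 FPKM with OE-LINC01134, 3.53 FPKM with siSRSF1-2 and 5.53 FPKM with siSRSF1-3. Reads of a pseudogene and of its parent may be exchanged, which was not tested.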

How the results depend on the processing

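The median of the genes kept its sign under every alternative for siSRSF1-2, siSRSF1-3 and siSRSF1-3 against siSRSF1-2, and for OE-LINC01134 it came to -1.8e-04 without blank 2 and was positive otherwise. With siSRSF1-2 and no filter on low values, 7 fell and 1 rose, against 2.17% and 2.58% of all genes. With equal FPKM sums 12 fell (8.93%) and 5 rose (21.1%). In 1 fit over all 12 libraries 0 fell (2.01%) and 0 rose (1.74%). Without a variance trend 12 fell (12%) and 0 rose (13.1%). With a minimum log2 fold change of 1, 0 fell (2.73%) and 0 rose (2.22%). By unadjusted p 25 fell (19.7%) and 3 rose (20.6%). With the gene length trend removed 12 fell (12.6%) and 2 rose (13%). Own reads, voom and averaging were alternatives added after seeing the data. With FPKM scaled to each library's own reads 19 fell (12%) and 2 rose (15.6%). By voom 20 fell (13.7%) and 1 rose (15%). Averaging near-identical libraries left siSRSF1-2 with 1 value, and the median was -0.22. Leaving out 1 library at a time gave 4 to 30 that fell (5.27% to 24.7%) and 0 to 5 that rose (5.16% to 27.4%). With siSRSF1-3, 29 were higher (14.9%) and 2 lower (12.9%) in 1 fit over all 12 libraries. By unadjusted p 23 were higher (15.2%) and 2 lower (13.6%). Leaving out 1 library gave 0 to 49 higher (0% to 19.1%) and 0 to 1 lower (0% to 16.8%). By replicate 3 alone the median was 0.041. With OE-LINC01134, 6 were higher (14%) and 6 lower (12.3%) by unadjusted p. Leaving out 1 library gave 0 to 10 higher (0.0057% to 13.5%) and 0 to 10 lower (0% to 12%). For siSRSF1-3 against siSRSF1-2, 50 were higher (16.8%) and 1 lower (15.5%) in 1 fit over all 12 libraries. By unadjusted p 53 were higher (21.9%) and 1 lower (20.2%). Leaving out 1 library gave 0 to 59 higher (0% to 31.2%) and 0 to 1 lower (0% to 30%). The median was 0.25 with equal FPKM sums and 0.25 by replicate 3 alone. Where a lone library stood for a group, its spread was assumed to be that of the other groups.

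The fold changes of single genes given in the text (71 in all, a gene counting once in each comparison) were recomputed too, and 8 of them changed sign under an alternative. None of the 8 had passed the threshold. MRPL46 was at 0.18 for siSRSF1-3 against siSRSF1-2 without siSRSF1-3 replicate 1 and at 0.053 by replicate 3 alone, and leaving out 1 library gave -0.40 to 0.18. In the same comparison MRPS27 was at -0.53 with equal FPKM sums and at -0.26 with FPKM scaled to each library's own reads, and leaving out 1 library gave -0.019 to 0.085. MRPS28 with siSRSF1-3 was at 0.051 without blank 1 and at 0.075 without siSRSF1-3 replicate 1, and leaving out 1 library gave -0.50 to 0.075. MRPL10 with siSRSF1-3 was at -0.40 with equal FPKM sums, -0.17 with the length trend removed, -0.21 with own reads and -0.14 by replicate 3 alone, and leaving out 1 library gave -0.0085 to 0.14. MRPL23 with siSRSF1-3 was at -0.85 by replicate 3 alone. With siSRSF1-2 and equal FPKM sums, MRPL10 was at 0.029, MRPS18A at 0.042 and MRPL30 at 0.014, and MRPL10 was at 0.0033 with the length trend removed. The cause of these changes was not tested.

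Replicate numbers were shared between groups in the labels, but same-numbered libraries did not deviate together (correlations between -0.08 and 0.04), so the numbers were not taken as pairs. With the replicate number as a block, 10 genes fell and 0 rose with siSRSF1-2 (limma, 7.01% and 7.1% of all genes). In the other 3 comparisons 0 passed, against at most 0.0171% of all genes in either direction. With 3 libraries against 3, an exact permutation test of a single gene cannot go below p = 0.1. The fewest reads in a library were 17 for MRPS24, 27 for MRPL53 and 52 for MRPL38, which limits the precision of these genes.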
